A study of Mus musculus with 12 samples.

Results

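Cortical interneurons are inhibitory neurons that release GABA, and most of them also make a neuropeptide or a calcium-binding protein by which their classes are told apart. The genes described here are 10 such genes: Npy, Sst, Cort, Vip, Cck and Tac2, which encode neuropeptide precursors, Gad1 and Gad2, which encode the enzymes that make GABA from glutamate, the calcium-binding protein gene Pvalb, and Reln, which encodes a secreted matrix protein. They were chosen by name, as the rows of the expression table whose single annotated gene symbol is one of the 10, and each gene had 1 transcript cluster, among 21218 transcript clusters with 1 gene symbol and 35556 in all. The tissue was labelled cerebrum and was profiled in bulk. Several of these genes are also active outside cortical interneurons: Gad1 and Gad2 in the GABA-releasing projection neurons of the striatum, Cck in cortical pyramidal cells, and Npy, Sst and Tac2 in the hypothalamus.

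The arrays came from C57BL/6J mice with a humanized knock-in of IKBKAP, the gene mutated in familial dysautonomia (FD), and every array carries the genotype label FDloxP/+. Treated mice received phosphatidylserine (PS), a membrane phospholipid, at 200 mg/kg, and control mice received medium-chain triglycerides (MCT), in gavages of 100 µl given on alternate days over 3 months, starting at an age of 4 months. Cerebrum and heart were profiled, with 3 PS and 3 MCT arrays per tissue and 12 arrays in all. The labels conflict, since the series design names 6 FD mice and the growth protocol names 3 FD and 3 wild-type mice, and no array carries a wild-type label. The labels also give the dose per kg in one place and per day in another.

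Values are the deposited log2 intensities of Affymetrix whole-transcript arrays, and their small number limits precision. Array medians were 4.89 to 5. The cerebrum arrays carried their tissue's markers: the synaptic gene Snap25 was 12.37 to 12.44 in PS cerebrum and 12.30 to 12.39 in MCT cerebrum, and the ventricular light chain gene Myl2 was 3.92 to 4.03 and 3.78 to 4.15 there. In heart, Myl2 was 11.84 to 11.90 with PS and 11.98 to 12.05 with MCT. Xist, the X-inactivation RNA gene, was at 8.92 to 9.86 (female pattern) in cerebrum PS 1 and PS 3 and in the 3 PS hearts, and at 3.32 to 4.03 (male pattern) in cerebrum PS 2, the 3 MCT cerebra and the 3 MCT hearts, so sex pattern and treatment largely moved together. Cerebrum PS 2 thus had the sex pattern of none of the 3 PS hearts, although the series design gives 3 PS mice, and it cannot come from the mouse of any of these hearts.

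For PS against MCT in cerebrum, 3 peptide genes were higher and 1 GABA-synthesis gene was lower in PS mice. Npy was 2.03-fold, Cck 1.67-fold and Sst 1.39-fold higher, and Gad2 was 1.60-fold lower. In limma, with Benjamini-Hochberg adjustment over 12733 transcripts and a threshold of 0.05, 4 of the 10 genes therefore passed, against a background of 5.76% of all transcripts tested. PS and MCT arrays did not overlap for these 4 genes, as for 32.8% of all transcripts. By direction, 3 of 10 passed as higher and 1 of 10 as lower, against 1.83% and 3.93% of all transcripts. The 10 genes and the marker lists below were chosen with earlier results of these data known, so such shares only describe them. The median log2 difference of the 10 was 0.37, beside −0.03 over all transcripts tested. In bulk tissue, a change in the number of cells of a type and a change in RNA per cell cannot be told apart. The samples may also have differed in the brain regions they held, which was not tested directly. Markers of striatal and cortical projection neurons differed between the groups, as given below.

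**Figure D1:**
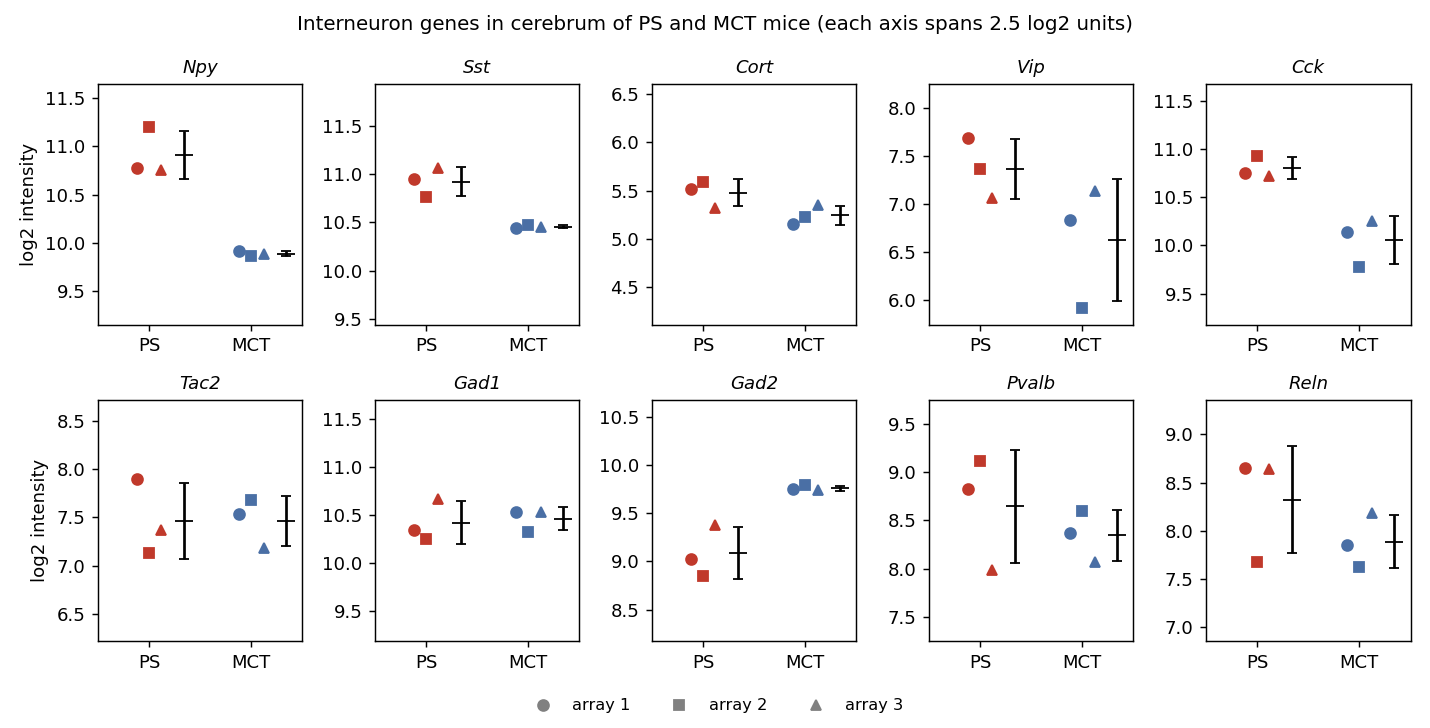
Log2 intensity of the 10 genes on each cerebrum array, with PS left and MCT right in each panel, the marker shape giving the array number, and the black bar giving mean and SD (n = 3). PS and MCT values do not overlap for Npy, Sst, Cck and Gad2, and they overlap for the other 6 genes.

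Npy encodes neuropeptide Y, a peptide of many Sst interneurons and of neurogliaform cells. Npy was 10.78, 11.20 and 10.76 in PS cerebrum (PS 1 to PS 3) and 9.92, 9.86 and 9.89 in MCT cerebrum. The groups did not overlap, and the MCT arrays lay within a range of 0.06, whereas PS 2 stood above the other PS arrays. The log2 difference was 1.02 ± 0.13 (SE, adjusted p = 0.0159 in limma).

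Sst encodes somatostatin, which marks a large class of interneurons that contact dendrites. Sst was 10.95, 10.76 and 11.06 in PS cerebrum and 10.44, 10.47 and 10.45 in MCT cerebrum. Every PS array lay above every MCT array, PS 3 being the highest and PS 2 the lowest of the PS arrays, the reverse of their order for Npy. The log2 difference was 0.47 ± 0.09 (SE, adjusted p = 0.0398 in limma).

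Cck encodes cholecystokinin, the peptide of a class of basket cells and, in mouse cortex, of many pyramidal cells. Cck was 10.75, 10.93 and 10.72 in PS cerebrum and 10.14, 9.78 and 10.25 in MCT cerebrum. The groups did not overlap, with the wider spread in the MCT arrays, where MCT 2 was lowest. The log2 difference was 0.74 ± 0.13 (SE, adjusted p = 0.0349 in limma).

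Vip encodes vasoactive intestinal peptide, the marker of interneurons that mainly inhibit other interneurons. Vip was 7.68, 7.36 and 7.06 in PS cerebrum and 6.83, 5.92 and 7.14 in MCT cerebrum. The groups overlapped, since MCT 3 lay above PS 3, and MCT 2 stood well below the other MCT arrays. The log2 difference of 0.74 had a 95% interval of 0.03 to 1.45 and did not pass (adjusted p = 0.161 in limma), and it was 0.38 without MCT 2.

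Cort encodes cortistatin, a relative of somatostatin. Cort was 5.52, 5.59 and 5.32 in PS cerebrum and 5.15, 5.23 and 5.35 in MCT cerebrum, close to the filter on low values at 5.04. The groups overlapped at PS 3 and MCT 3, and the log2 difference of 0.23 did not pass (adjusted p = 0.172 in limma).

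Tac2 encodes neurokinin B, a tachykinin, and was 7.90, 7.13 and 7.37 in PS cerebrum and 7.53, 7.68 and 7.18 in MCT cerebrum. Its groups overlapped fully, and the interval of its log2 difference ran from −0.49 to 0.49.

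Of the GABA-synthesis genes, Gad2 passed and Gad1 did not. Gad2, which encodes the form of glutamate decarboxylase found at nerve terminals, was 9.02, 8.85 and 9.38 in PS cerebrum and 9.75, 9.79 and 9.74 in MCT cerebrum. Every PS array lay below every MCT array, with PS 3 nearest to them, and the log2 difference was −0.68 ± 0.13 (SE, adjusted p = 0.0383 in limma). Gad1, which encodes the form that supplies most GABA in the cell, was 10.34, 10.25 and 10.67 in PS cerebrum and 10.53, 10.32 and 10.53 in MCT cerebrum. The Gad1 groups overlapped, and the interval of the log2 difference ran from −0.33 to 0.25.

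Within each array, the log2 value of Gad1 minus that of Gad2 was 1.32, 1.40 and 1.29 in PS cerebrum and 0.78, 0.53 and 0.79 in MCT cerebrum. The change of this quantity was 0.64, and an exact two-sided permutation test gave p = 0.10, the smallest value that 3 arrays against 3 can give. The permutation test used the same arrays and genes as the tests above, so it is not separate evidence. The offset between the probe sets has no meaning, so only its change between groups can be read.

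Pvalb encodes parvalbumin, the calcium-binding protein of fast-spiking basket and chandelier cells. Pvalb was 8.83, 9.12 and 7.99 in PS cerebrum and 8.37, 8.60 and 8.07 in MCT cerebrum. PS 1 and PS 2 lay above all MCT arrays and PS 3 below them, so the log2 difference of 0.30 had an interval from −0.35 to 0.95 and did not pass. Without PS 3 it was 0.63 (adjusted p = 0.0535 in limma), and over the 6 fits that each left out 1 array it ran from 0.06 to 0.63.

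Reln encodes reelin, a glycoprotein secreted by Cajal-Retzius cells in development and by interneurons of the adult cortex. Reln was 8.65, 7.68 and 8.64 in PS cerebrum and 7.85, 7.63 and 8.18 in MCT cerebrum. PS 1 and PS 3, which had the female pattern, lay above all MCT arrays, and PS 2, which had the male pattern, lay inside the MCT range. The log2 difference of 0.44 did not pass (adjusted p = 0.321 in limma), and with the Xist level as a covariate it was −0.17. That fit compares mainly PS 2 with the MCT arrays, so sex and treatment cannot be told apart by it.

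The 4 calls depended on single arrays, and every difference kept its sign. With 1 of the 6 cerebrum arrays left out in turn, the Npy difference ran from 0.88 to 1.10, Sst from 0.40 to 0.55, Cck from 0.61 to 0.84 and Gad2 from −0.83 to −0.56. Npy passed in 3 of these 6 fits (without PS 2, PS 3 or MCT 3), Sst in 2 (without PS 2 or PS 3), Cck in 2 (without PS 3 or MCT 3) and Gad2 in 1 (without PS 3). Without PS 2, the array that matched no PS heart, the differences were 0.88 for Npy, 0.55 for Sst, 0.68 for Cck and −0.56 for Gad2. Without the filter on low values Npy, Sst and Cck passed and Gad2 did not (adjusted p = 0.0509 in limma). Over all transcripts the leave-one-out fits in limma called 0 when MCT 1 was left out (2303 with unadjusted p below 0.05), 0 without PS 1 (2945 with unadjusted p below 0.05), 2 without MCT 2, 145 without PS 2, 615 without MCT 3 and 1557 without PS 3.

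The bases before the start sites of the 4 genes that passed are shown because these are the genes called in cerebrum and the Sst promoter holds the classic cAMP response element (CRE). The sequences are RefSeq's on GRCm38.p6, 120 bases ending at the base before the annotated start, 5′ to 3′ on the gene's strand, with matches to TGACG or its complement CGTCA in capitals.
Npy, chr6:49822590-49822709, plus strand: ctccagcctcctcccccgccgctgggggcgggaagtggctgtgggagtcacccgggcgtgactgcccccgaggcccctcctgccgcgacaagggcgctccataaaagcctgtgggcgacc
Sst, chr16:23890845-23890964, minus strand: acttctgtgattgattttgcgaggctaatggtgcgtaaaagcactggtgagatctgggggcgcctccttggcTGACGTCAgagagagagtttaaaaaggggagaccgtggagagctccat
Cck, chr9:121495695-121495814, minus strand: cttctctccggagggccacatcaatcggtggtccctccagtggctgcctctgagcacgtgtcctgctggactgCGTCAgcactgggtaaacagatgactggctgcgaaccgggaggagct
Gad2, chr2:22622207-22622326, plus strand: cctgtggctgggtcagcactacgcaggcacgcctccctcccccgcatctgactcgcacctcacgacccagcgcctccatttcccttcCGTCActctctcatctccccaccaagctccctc

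All 10 genes had an entry in the promoter table, with 11 start sites because Pvalb has 2. The full CRE, TGACGTCA, a palindrome that contains both half-sites overlapping, was found in the 250 bases before the start of Sst alone among the 10, and in 1.55% of all 32851 promoters. The half-site TGACG, on either strand, was found in 5 of the 10 genes (Sst, Cck, Cort, Vip and Gad2) and in 17.8% of all promoters. Npy, which rose most, had no match in this window, and Gad2, which fell, had 1. A match describes the letters only.

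The companion genes of GABAergic interneurons did not move one way in cerebrum. Of 39 listed genes 36 were measured and 33 passed the filter. In limma 1 of these rose and 3 fell, beside 1.83% called higher and 3.93% called lower among all transcripts. Their median log2 difference was 0.01, beside −0.03 over all transcripts. Cplx3, a complexin of synaptic vesicle release, rose by 0.69 ± 0.14 (SE, adjusted p = 0.0383). The genes that fell were the homeobox gene Dlx6 (−1.35 ± 0.19), the GABA-degrading transaminase gene Abat (−0.45 ± 0.10) and Tac1, the substance P precursor gene (−3.01 ± 0.67). Tac1 is also a gene of striatal projection neurons, and its fall was smallest in PS 3.

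Dlx6 was 5.57, 5.30 and 6.11 in PS cerebrum and 7.12, 6.93 and 6.98 in MCT cerebrum. The groups were well apart, with PS 3 nearest to the MCT arrays, as for Gad2. PS 3 was also nearest to the MCT arrays for the vesicular GABA transporter gene Slc32a1, at 7.38, 7.25 and 7.85 in PS cerebrum and 7.89, 8.15 and 7.98 in MCT cerebrum, but its log2 difference of −0.51 did not pass (adjusted p = 0.0896 in limma). Nor did Calb1, the calbindin gene (−0.35), Lamp5, a marker of neurogliaform cells (0.93), Kcnc2, a potassium channel gene of fast-spiking cells (0.40), and the enkephalin precursor gene Penk (−1.87), although their groups did not overlap. Lhx6, the transcription factor gene that specifies the Sst and Pvalb classes, was chosen after its value was seen and had a log2 difference of 0.02 with an interval from −0.33 to 0.38.

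Receptors for these peptides and for reelin had 10 of 16 genes above the filter in cerebrum. In limma 0 passed, beside 5.76% of all transcripts. At an unadjusted p under 0.05 there were 5, beside 3692 of all 12733 transcripts tested. The log2 difference was positive for 9 of 10 (45.2% of all transcripts), with a median of 0.31 beside −0.03 over all transcripts. The receptor genes below the filter are not in this count. Among these, at low levels, Npy2r, Cckar and Tacr3 were lower on every PS array than on every MCT array. The groups overlapped for Npy5r, Sstr5 and Vipr2. The lowest p-values belonged to the somatostatin receptor gene Sstr4 (0.55, adjusted p = 0.0536), the VIP receptor gene Vipr1 (0.46), the reelin receptor genes Lrp8 (0.45) and Vldlr (−0.28), and the cholecystokinin receptor gene Cckbr (0.60). The groups did not overlap for these 5 and for Dab1, a reelin signalling adaptor gene, which makes 6 of 10, beside 32.8% of all transcripts.

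Markers of other cells moved with the treatment beside these genes. Striatal projection neuron genes had negative differences in all 15 tested members (median −1.55). Of these 4 passed, Scn4b (−1.17), Syndig1l (−1.53), Rarb (−1.88) and Tac1 (−3.01), beside 3.93% of all transcripts called lower. Tac1 and Penk are in both the striatal and the companion list and count in each. The mean of the striatal list's 16 measured genes was 6.78, 6.81 and 8.42 in PS cerebrum and 9.07, 9.26 and 9.04 in MCT cerebrum, and the summed linear intensity ran from 2894 to 9760 with PS and from 13154 to 14689 with MCT. PS 3 was thus much nearer to the MCT arrays than PS 1 and PS 2 were.

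The deviation of Gad2 from its MCT mean was −0.74, −0.91 and −0.38 in PS 1, PS 2 and PS 3. Npy lay 0.89, 1.31 and 0.87 above the MCT mean in PS 1, PS 2 and PS 3, and Sst lay 0.50, 0.31 and 0.61 above it. The deviation of the striatal mean from its MCT mean was −2.35, −2.31 and −0.70 in these arrays. With the striatal mean as a covariate in limma, only 1 of all transcripts tested passed, and it was not among the 10. Of the 10, 2 had an unadjusted p under 0.05. The log2 differences in that fit were 0.78 for Npy, 0.69 for Sst, 0.56 for Cck and −0.19 for Gad2, with adjusted p-values of 0.412, 0.395, 0.514 and 0.687. The striatal mean did not overlap between the treatment groups, so such a fit separates the covariate from treatment only in part.

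**Figure D2:**
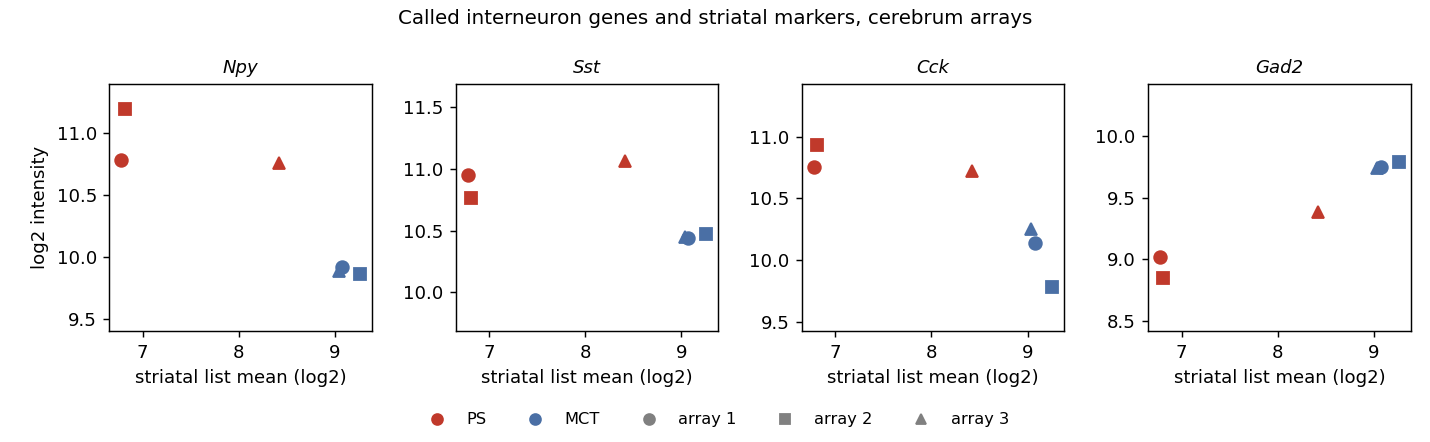
Log2 intensity of the 4 genes that passed in cerebrum, on the vertical axis, against the mean log2 intensity of the striatal marker list on the same array, on the horizontal axis, with 3 PS and 3 MCT arrays. PS 3 (triangle) sits at a striatal mean of 8.42, with Npy and Cck near their PS 1 values and Gad2 between the other PS arrays and the MCT arrays.

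Genes of cortical projection neurons had positive differences in 11 of 13 tested members, with a median of 0.48. The 1 that passed was the deep-layer factor gene Fezf2 (0.74, adjusted p = 0.0487 in limma), beside 1.83% of all transcripts called higher. The mean of the cortical projection list was 9.03, 8.87 and 8.62 in PS cerebrum and 8.49, 8.20 and 8.59 in MCT cerebrum. Its summed linear intensity ran from 9138 to 11072 with PS and from 6712 to 8869 with MCT. PS 3 lay just above the highest MCT array. All 6 tested oligodendrocyte genes had negative differences (median −0.62), and 3 of them, Opalin, Aspa and Mog, passed, beside 3.93% of all transcripts called lower. Summed oligodendrocyte intensity was 1917 to 2490 in PS cerebrum and 2522 to 4007 in MCT cerebrum.

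In the remaining lists of cell types and brain regions 0 genes passed in limma, beside 5.76% of all transcripts. At most 3 of a list had an unadjusted p under 0.05, beside 3692 of all 12733 transcripts tested. The general neuronal list had a median log2 difference of 0.06 over 7 tested genes, the astrocyte list −0.10 over 6, the microglial list 0.07 over 4 and the endothelial list 0.40 over 5. The hypothalamic list had a median of −0.46 over 6 tested genes, the thalamic list −0.29 over 11 and the hippocampal list −0.41 over 6. The sympathetic list had a median of −0.76 over 2 tested genes, the cardiomyocyte list −0.03 over 4 and the choroid plexus list −2.19 over 2. The choroid plexus gene Ttr was 6.70, 4.34 and 6.60 in PS cerebrum and 10.82, 11.54 and 5.98 in MCT cerebrum. For Ttr, MCT 3 thus lay inside the PS range, far below MCT 1 and MCT 2. Apart from the striatal covariate, the part of these cell types in the differences of the 10 genes was not tested.

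**Figure D3:**
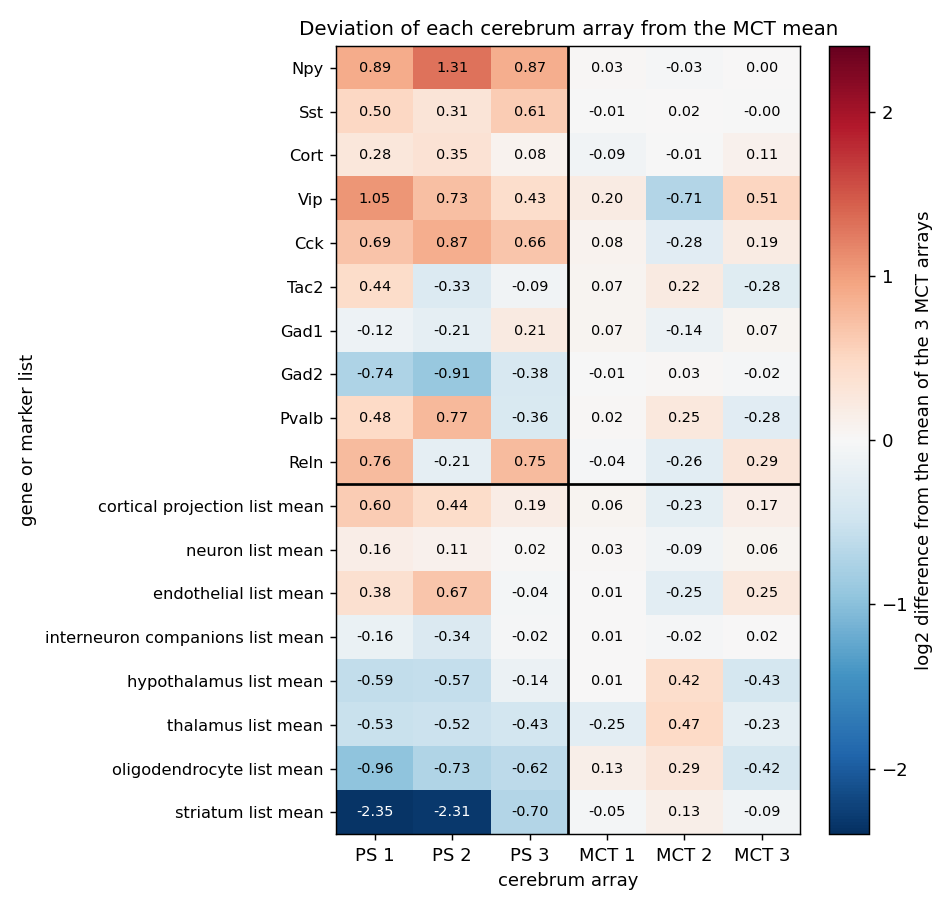
Log2 difference of each cerebrum array (columns, PS left) from the mean of the 3 MCT arrays, for the 10 genes (upper block) and for the mean of marker lists (lower block). Npy, Sst and Cck are positive on all 3 PS arrays, Gad2 is negative on all 3, and the striatal list mean is −2.35, −2.31 and −0.70 on PS 1, PS 2 and PS 3.

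The transcripts whose pattern over the 6 cerebrum arrays was most like that of each called gene are given as a description, since arrays of both treatments enter and any shared group difference raises the coefficient. Out of 12732 other tested transcripts, those nearest to Npy were Sox18, Syvn1 and Serinc2 (Pearson r of 0.997, 0.995 and 0.992). Those nearest to Sst were Sh3bgrl3, Lman2 and Bfsp1 (0.997, 0.990 and 0.989), and those nearest to Cck were Basp1, Zdhhc7 and Stard8 (0.998, 0.998 and 0.996). Those nearest to Gad2 were Dcc, Zfp935 and Ptprz1 (0.999, 0.997 and 0.996). No transcript was among the nearest of more than 1 of these 4 genes, but the 4 were themselves correlated over the 6 arrays. Npy had r of 0.81 with Sst, 0.94 with Cck and −0.96 with Gad2. Sst had 0.80 with Cck and −0.71 with Gad2, and Cck had −0.91 with Gad2.

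Heart, which holds no cortical interneurons, gave the reference level. For cerebrum against heart in MCT mice, 9 of the 10 genes passed the filter of 5.23 and all 9 were higher in cerebrum in limma, against 40.3% of all transcripts called higher there. In PS mice all 10 were higher in cerebrum, against 37.6%. Most of these genes passed the filter through cerebrum alone, so the counts only describe the tissue, and fold changes against levels near the lower end of the scale are approximate.

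**Figure D4:**
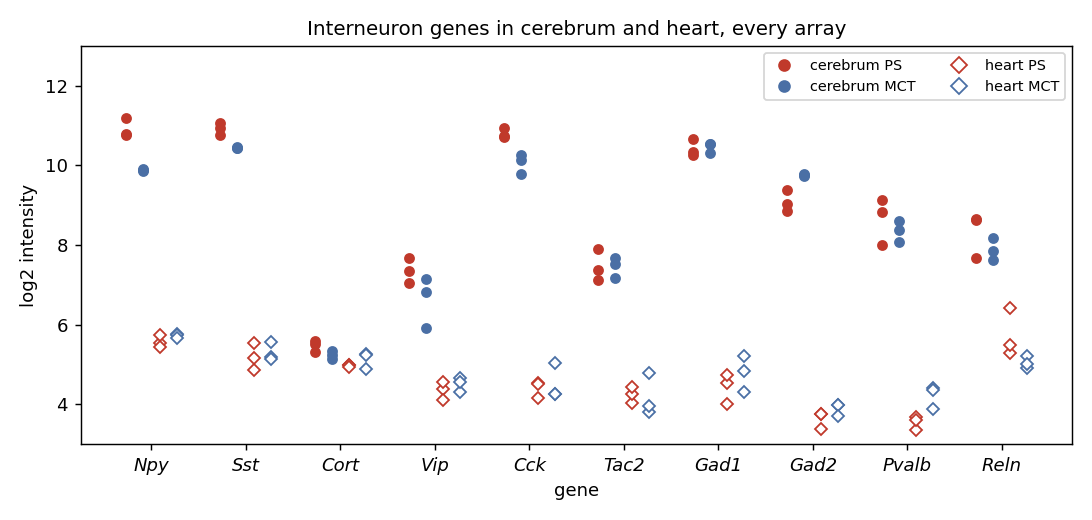
Log2 intensity of the 10 genes on all 12 arrays, with cerebrum as filled circles and heart as open diamonds, PS in red and MCT in blue. Cort is the one gene whose cerebrum and heart values lie close together, and Pvalb, Gad2 and Tac2 lie mostly between 3 and 5 in heart.

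In MCT mice Gad2 was 9.76 ± 0.03 in cerebrum and 3.90 ± 0.15 in heart (SD, n = 3). Gad1 was 10.46 ± 0.12 in cerebrum and 4.78 ± 0.45 in heart. For Cck the MCT means were 10.06 ± 0.25 in cerebrum and 4.52 ± 0.46 in heart, and for Sst they were 10.45 ± 0.02 and 5.29 ± 0.24. The log2 differences between the tissues were 5.86 for Gad2, 5.68 for Gad1, 5.53 for Cck and 5.16 for Sst, and in PS mice they were 5.45, 5.99, 6.39 and 5.73. Since heart values near or below the filter depend on each probe set, the genes cannot be ranked by these sizes. The other differences in MCT mice were 4.16 for Npy, 4.14 for Pvalb, 3.27 for Tac2, 2.84 for Reln and 2.12 for Vip.

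Cort was the exception. Its MCT means were 5.24 ± 0.10 in cerebrum and 5.13 ± 0.21 in heart, below the filter, and without a filter the log2 difference was 0.11 (adjusted p = 0.469 in limma). In PS mice Cort was 5.48 ± 0.14 in cerebrum and 4.98 ± 0.03 in heart, a log2 difference of 0.50 ± 0.10 (SE, adjusted p = 0.00205). Its highest cerebrum value on any array was 5.59 and its highest heart value 5.27.

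In heart, 4 of the 10 genes passed the filter of 4.94 for PS against MCT, and 0 passed the test in limma, against a background of 0.33% of transcripts. At an unadjusted p under 0.05 there was 1 of the 4, beside 3015 of all 12736 transcripts tested. Npy, which in heart is a peptide of sympathetic nerve fibres, was 5.53, 5.74 and 5.44 in PS hearts and 5.78, 5.74 and 5.67 in MCT hearts. The groups overlapped, since PS 2 lay above MCT 3, and the log2 difference of −0.16 had an interval from −0.44 to 0.12. The sympathetic enzyme gene Dbh was low in both groups of hearts, at 4.57 to 4.68 with PS and 4.50 to 4.97 with MCT, and no gene of the sympathetic list passed the filter there.

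Reln, which is also made by lymphatic endothelium, was 5.28, 6.43 and 5.49 in PS hearts and 5.22, 4.91 and 5.01 in MCT hearts. All PS hearts lay above all MCT hearts, as for 28.4% of transcripts in either direction, with PS 2 far above the others. The log2 difference of 0.69 did not pass (adjusted p = 0.194 in limma). Sst (−0.10) and Cort (−0.16) did not pass either. Vip, Cck, Pvalb, Gad1, Gad2 and Tac2 lay below the filter, and Pvalb was 3.35, 3.69 and 3.60 in PS hearts and 3.88, 4.40 and 4.35 in MCT hearts.

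The difference of the PS effect between cerebrum and heart was tested over all 12 arrays for the 9 genes above the filter. Npy passed, with an effect in cerebrum minus that in heart of 1.18 ± 0.18 on the log2 scale (SE, adjusted p = 0.0125 in limma), and 1 of 9 stands against 1.52% of all transcripts. Its PS effect was 1.02 in cerebrum and −0.16 in heart, where its level was low at 5.44 to 5.78. The difference thus rests mainly on cerebrum. The other called cerebrum genes did not pass this test, with 0.57 for Sst, 0.86 for Cck and −0.41 for Gad2 (adjusted p-values of 0.211, 0.131 and 0.300). For these 3 genes a difference between the tissues was thus not shown, and their heart levels lay near or below the filter.

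**Figure D5:**
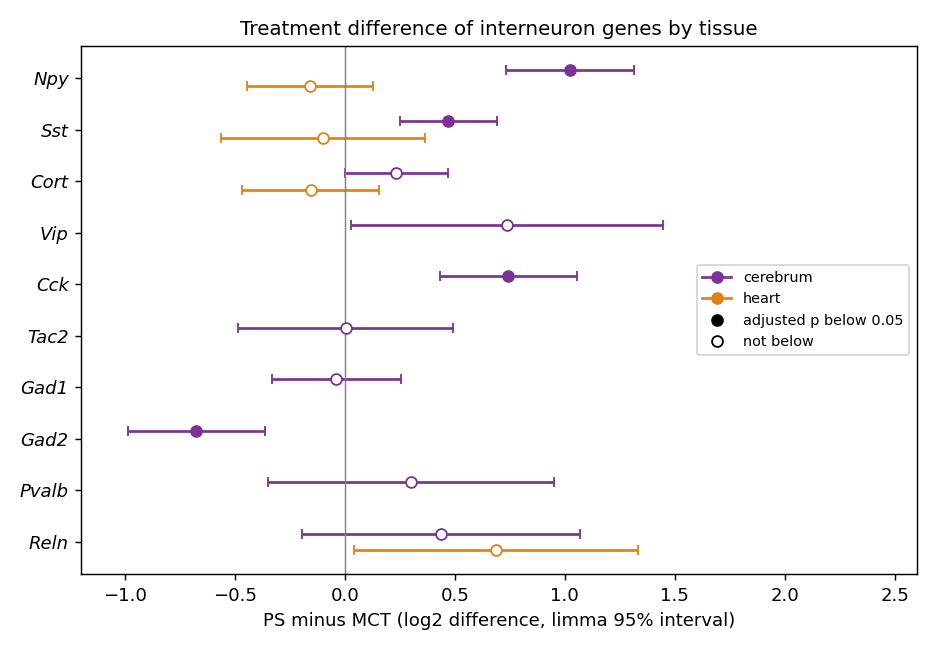
Log2 difference of PS minus MCT with limma's 95% interval for each gene, in cerebrum (purple) and in heart (orange, only the 4 genes above the filter), filled where the adjusted p was below 0.05. The Npy intervals of the tissues do not overlap (0.73 to 1.32 in cerebrum, −0.44 to 0.12 in heart), and no heart value is filled.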

How the data were processed

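The authors deposited log2 intensity values, 1 for each transcript cluster and array. The submitters' processing notes name Affymetrix Expression Console. Its version, the summary method and the genome build were not stated in what was used here. The log base was inferred from the range of 1.9 to 13.11, and no further normalization was applied.

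The platform annotation gave 1 symbol to 21218 transcript clusters. Groups came from the titles. These transcripts, with a mean at or above their 40th percentile, were tested in limma 3.58.1 (R 4.3.3) with Benjamini-Hochberg adjustment and a threshold of 0.05. The fit was tested on simulated data. Cerebrum PS 2 and heart PS 2 had opposite sex patterns, so these arrays of equal number do not share a mouse, and no pairing was used.

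The genes and lists were chosen with earlier results of these data known. All 10 genes were named. From the companion and receptor lists, genes past the threshold and up to 5 others by p were named, and from other lists up to 3 by p. Alternatives changed the filter, the scaling, limma's trend, the transcripts tested, a block, a covariate or the arrays included.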

Additional observations from a re-analysis of the deposited data

Results flagged for a closer look

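The PS effect on Npy differed between the tissues in limma's test of the difference over all 12 arrays, with 1.18 ± 0.18 on the log2 scale (SE, adjusted p = 0.0125). Npy was low in heart, at 5.44 to 5.78, and the difference rests mainly on cerebrum. Over the alternatives the difference ran from 1.04 to 1.31, and it passed in 17 of 18. Without cerebrum MCT 1 it was 1.20 with an adjusted p of 0.0557. Sex pattern and treatment coincided in all hearts and in all cerebra but PS 2, so their parts in this difference cannot be told apart.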

How the results depend on the processing

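In cerebrum, 734 transcripts and 4 of the 10 genes passed in limma. Without the filter they were 513 and 3, with the Gad2 call lost (adjusted p = 0.0509). With all transcript clusters tested the counts were 189 and 1 (Npy). With the replicate block they were 0 and 0, with 3083 and 6 at an unadjusted p under 0.05. The numbers were not taken to pair the samples, since same-numbered PS and MCT cerebra had correlations of deviations of 0.10, −0.15 and −0.26. With the striatal mean as a covariate they were 1 and 0. With 1 array left out they ran from 0 to 1557 and from 0 to 4. In heart, 42 passed, against 17 with all transcript clusters, 88 with the replicate block and 4 to 3416 with 1 array left out, and 0 of the 10 genes passed in each. For the difference between tissues, 194 transcripts and 1 gene passed, against 294 transcripts with arrays centred on their medians, and 3 to 1629 transcripts and 0 to 2 genes with 1 array left out. The cause was not tested, save that more transcripts or fewer arrays enter some fits.

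Signs turned for differences that had not passed. In cerebrum Gad1 was 0.0081 after quantile normalization, 0.045 without PS 2 and 0.34 with the striatal covariate. Tac2 was −0.027 after centring, ran from −0.21 to 0.17 with 1 array left out, and was −0.21 without PS 1, −0.14 without MCT 3, −0.12 with the striatal and −0.29 with the Xist covariate. Cort was −0.026 and Pvalb −0.70 with the striatal covariate, and Reln was −0.17 with the Xist covariate. In heart Sst ran from −0.28 to 0.067, at 0.067 without PS 1 and 0.04 without MCT 3. For the difference between tissues Tac2 ran from −0.35 to 0.14, at 0.12 without cerebrum PS 2, 0.06 without cerebrum MCT 2 or heart MCT 3 and 0.05 without heart PS 3, and Reln ran from −0.48 to 0.10, at 0.10 without heart PS 2 and 0.07 without cerebrum PS 2. With the Xist covariate Sst was 0.32 (adjusted p = 0.104 in limma), and Npy, Cck and Gad2 passed. Only PS 2 among the PS cerebra had the male pattern of the MCT cerebra. The fit with Xist thus compares mainly that 1 array with the MCT arrays and cannot separate sex from treatment. Of 575 single-gene values under alternatives, 523 kept direction and side of the threshold. These include the values for cerebrum against heart, which all kept both, and many for genes that had not passed. The PS against MCT calls in cerebrum were kept less often. Npy kept its call in 9 of 14 alternatives, Cck in 7, Sst in 6 and Gad2 in 5. In the other alternatives these genes kept their direction but did not pass.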
